A study of Mus musculus with 6 samples.

Results

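The genes described here are the transcriptional end of the Hippo pathway in differentiating mouse muscle cells: the coactivators Yap1 and Wwtr1 (which encodes TAZ), the DNA-binding factors Tead1, Tead2, Tead3 and Tead4, the cofactors Vgll2, Vgll3 and Vgll4, and the kinase gene Lats2. These 10 genes were taken by symbol from the 55401 rows of the gene count matrix, each symbol gave 1 row, and all 10 passed the filter on low counts that 17310 genes passed. Poly(A) RNA was sequenced from C2C12, a line of mouse myoblasts able to form myotubes, at 2 d post differentiation in DMEM with 2% horse serum, with 3 control and 3 Phf2 KO libraries. The Phf2 KO cells had received 4 pooled guides with Cas9 against Phf2, a histone demethylase, and the controls, which the labels call wild type, a mock plasmid with Cas9, ZsGreen and a guide without a match. Each group was 1 pool of sorted cells and not a clone, and the replicates were wells of 1 experiment, so p-values measure the spread between wells, and a difference between the pools and an effect of Phf2 cannot be told apart. Totals of estimated counts lay between 52526109 and 67502788 per library. Phf2 fell from 100.8 ± 4.73 to 39.1 ± 1.78 CPM (mean ± SD, n = 3 each), which left 38.8% of the control RNA level in the pool. This is RNA and not protein, and the paper reports PHF2 protein as much lower in myoblasts after the knockout.

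In the Hippo pathway, the LATS kinases phosphorylate YAP and TAZ, which then stay in the cytoplasm and are degraded. Without that phosphorylation both enter the nucleus and bind TEAD proteins, since neither binds DNA itself. TEAD proteins recognise the MCAT element, CATTCC, named for the muscle genes in whose promoters it was first described, and VGLL proteins bind TEADs on a surface that overlaps the one used by YAP and TAZ. In muscle, TEADs are present in myoblasts and in differentiated fibres, and YAP activity is known to favour the proliferation of myoblasts. RNA levels, as measured here, do not report phosphorylation, localisation or activity of these proteins.

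The sequences below are shown because the promoters of several of these genes hold the 6 letters of the MCAT element. CATTCC was searched on both strands, on which it reads CATTCC or GGAATG, in the 250 bases before each RefSeq start (GRCm38.p6), and the 2 spellings do not overlap. Promoters were matched for 8 of the 10 genes, and 5 of these 8 (62.5%) held the letters, against 3880 of 27025 genes with a promoter (14.4%). No promoter was printed for Tead1 and Tead4, and the letters were not in the windows of Tead2, Vgll2 and Lats2. Some genes have several starts, and 7 of the 12 windows of these genes held a match, against 12.6% of all 32851 windows. Each stretch is written 5′ to 3′ on the gene's own strand, with the match in capitals.

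Yap1, minus strand, chr9:8004705-8004764, match beginning at -141 from the start: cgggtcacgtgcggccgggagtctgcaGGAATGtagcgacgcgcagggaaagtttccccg
Wwtr1, minus strand, chr3:57576014-57576073, at -170 or -136, depending on the start: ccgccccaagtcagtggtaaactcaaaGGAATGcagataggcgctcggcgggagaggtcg
Tead3, minus strand, chr17:28350955-28351014, at -182: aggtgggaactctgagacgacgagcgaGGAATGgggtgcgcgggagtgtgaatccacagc
Vgll3, plus strand, chr16:65815099-65815158, at -63: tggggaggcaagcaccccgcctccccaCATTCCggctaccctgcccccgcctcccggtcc
Vgll4, minus strand, chr6:114969253-114969312, at -82: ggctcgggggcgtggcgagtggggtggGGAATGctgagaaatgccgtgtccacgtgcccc

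The stretches of Yap1, Wwtr1, Tead3 and Vgll3 lie upstream of the annotated gene, and that of Vgll4 lies within the gene body but outside annotated exons. A further start of Tead3 had 2 matches, at -123 and -114, within an annotated Tead3 exon. For comparison, 5 muscle genes long known for MCAT elements in their promoters held the letters in all 5 cases, which the choice of these genes fixed. Of their 7 windows, 5 held a match. The match of Acta2 lay within an annotated Acta2 exon and that of Myh6 within the gene body. Of 14 known YAP/TAZ targets with a promoter, 6 held the letters, and of 5 differentiated muscle markers, 0 did. The match of Tnnt2, cardiac troponin T, is shown because its RNA level is given below, as is that of Ccn1, a textbook YAP target.

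Tnnt2, plus strand, chr1:135836280-135836333, at -27: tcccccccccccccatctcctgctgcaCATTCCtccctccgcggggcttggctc
Ccn1, minus strand, chr3:145650056-145650115, at -103: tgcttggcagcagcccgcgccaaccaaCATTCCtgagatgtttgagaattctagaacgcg

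A match of these letters is a description and not a measured binding site.

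The question put to the 10 genes was whether their RNA differed between Phf2 KO and control. One gene passed the test. Tead4 fell to 71.1% of its control level, and the other 9 did not pass. Of all genes tested, 6.48% passed at an adjusted p under 0.05 in either direction, 3.22% higher and 3.26% lower, so 1 in 10 is near that background. The groups of libraries did not overlap for 5 of the 10 genes, against 25.1% of all genes. Yap1 and Tead1 were higher in every Phf2 KO library (12.9% of all genes), and Tead4, Vgll3 and Vgll4 were lower (12.2%). The unadjusted p was under 0.05 for Yap1, Tead4, Vgll3 and Vgll4, and for 19.4% of all genes. The median log2 fold change was -0.063 over the 10 genes and -0.00096 over all genes tested.

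**Figure D1:**
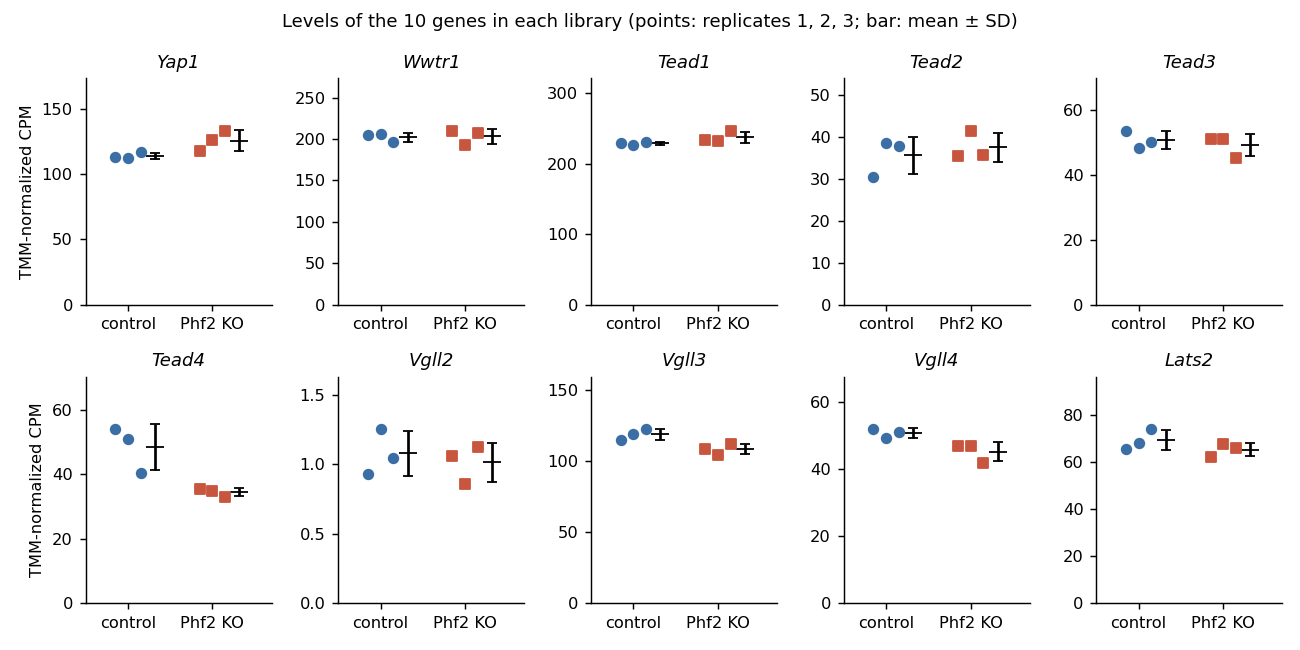
TMM-normalized CPM (y axis, from 0, a separate scale per gene) of the 10 genes in the 3 control (blue circles) and 3 Phf2 KO libraries (red squares), with the mean ± SD at the side. Tead4 has the lowest Phf2 KO level relative to control, with values from 40.4 to 54.1 CPM in the controls and from 32.9 to 35.5 CPM in Phf2 KO.

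Of the coactivators, Yap1 (chromosome 9, 7931999 to 8004596, minus strand) encodes YAP, the main effector of the pathway. Yap1 stood at 113.4, 112.6 and 116.9 CPM in control replicates 1, 2 and 3, and at 117.5, 126.3 and 133.4 CPM in the Phf2 KO replicates. Every Phf2 KO library lay above every control library, by 0.61 CPM at the closest. The log2 fold change was 0.14 (SE 0.050, 95% interval 0.03 to 0.24), and the gene missed the threshold, with an adjusted p of 0.129 in edgeR's quasi-likelihood test. Wwtr1 (chromosome 3, 57455649 to 57575910, minus strand) encodes TAZ, the paralogue of YAP with the same TEAD partners. Its level was 205.0, 206.1 and 196.2 CPM in the controls and 210.3, 193.4 and 206.9 CPM in Phf2 KO. The groups overlapped, and the interval of the log2 fold change ran from -0.09 to 0.11 around 0.0078.

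The TEADs share a DNA-binding domain and differ mainly in where and when they are expressed. Tead4 (chromosome 6, 128224288 to 128300823, minus strand, 5 annotated transcripts) is the TEAD best known in differentiating myoblasts, where myogenic factors bind its gene. Its CPM was 54.1, 50.8 and 40.4 in the controls and 35.5, 34.9 and 32.9 in Phf2 KO. All Phf2 KO libraries were below all controls, and control 3 was nearer to Phf2 KO than the other controls were. The mean fell from 48.5 ± 7.16 to 34.4 ± 1.31 CPM, a log2 fold change of -0.49 (SE 0.094, 95% interval -0.70 to -0.29) with an adjusted p of 0.00994 by the quasi-likelihood test. The call was lost without control 2 (adjusted p = 0.0591), without Phf2 KO 2 (0.0529) and without Phf2 KO 3 (0.0745), while the log2 fold change stayed between -0.61 and -0.41 without any 1 library. It was also lost when TPM was tested with limma (adjusted p = 0.114 with a pseudocount of 1 TPM and 0.109 with 0.1 TPM), at log2 fold changes of -0.49 and -0.50.

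Tead1 (chromosome 7, 112679318 to 112906807, plus strand) is widely expressed and is a factor of slow and cardiac muscle genes. It had 229.2, 226.8 and 231.1 CPM in the controls and 233.1, 231.5 and 246.9 CPM in Phf2 KO. The groups were separated by only 0.448 CPM, and the log2 fold change was 0.051 (SE 0.043, 95% interval -0.04 to 0.14, adjusted p = 0.588). Tead2 (chromosome 7, 45215753 to 45233644, plus strand), known from embryonic tissue, had 30.5, 38.7 and 37.8 CPM in the controls and 35.4, 41.5 and 35.7 CPM in Phf2 KO. Its groups overlapped (log2 fold change 0.075, 95% interval -0.13 to 0.28, adjusted p = 0.751). Tead3 (chromosome 17, 28331671 to 28350817, minus strand), known from placenta, had 53.5, 48.1 and 49.9 CPM in the controls and 51.0, 51.0 and 45.2 CPM in Phf2 KO. These groups overlapped as well (log2 fold change -0.042, 95% interval -0.18 to 0.10, adjusted p = 0.804). The whole interval of Tead4 thus lay below those of the other TEADs, a comparison of intervals and not a test of the differences between genes.

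**Figure D2:**
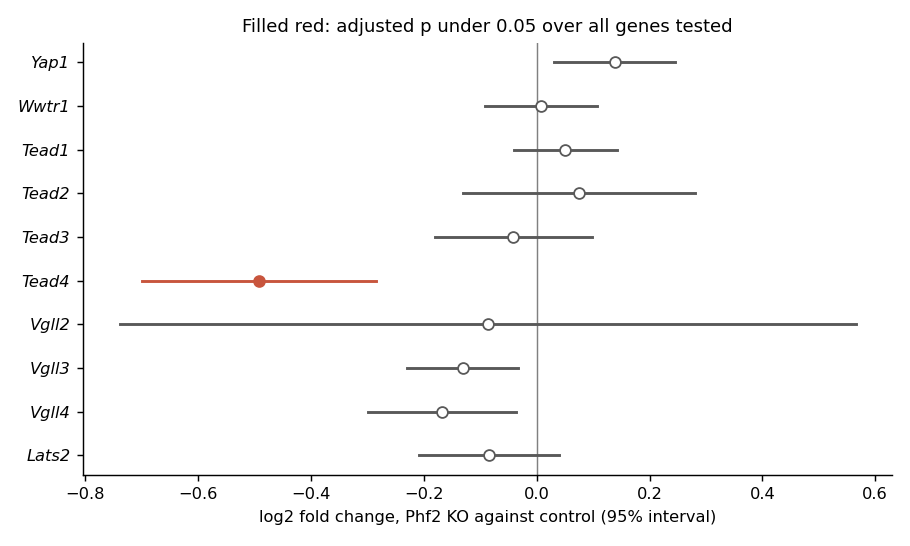
Log2 fold change of Phf2 KO against control (x axis) with its 95% interval for each of the 10 genes (y axis), with Tead4 filled in red as the gene with an adjusted p under 0.05. The intervals of Yap1, Tead4, Vgll3 and Vgll4 do not include 0, and that of Vgll2, the gene with the fewest counts, is the widest, from -0.74 to 0.57.

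The VGLL genes encode cofactors that bind TEADs in place of YAP and TAZ. Vgll4 (chromosome 6, 114860628 to 114969994, minus strand), a known antagonist of YAP at TEADs, had 52.0, 49.2 and 51.1 CPM in the controls and 46.9, 47.0 and 41.9 CPM in Phf2 KO. Every Phf2 KO library was lower, with a log2 fold change of -0.17 (SE 0.061, 95% interval -0.30 to -0.04), and the gene missed the threshold (adjusted p = 0.134). Vgll3 (chromosome 16, 65815257 to 65866368, plus strand), a TEAD cofactor, had 114.5, 119.0 and 122.5 CPM in the controls and 108.6, 104.4 and 111.9 CPM in Phf2 KO. It too was lower in every Phf2 KO library without passing (log2 fold change -0.13, SE 0.045, 95% interval -0.23 to -0.03, adjusted p = 0.112). Vgll2 (chromosome 10, 52022502 to 52028471, plus strand), the member of the family known from skeletal muscle, was near the lower limit of these data. It had estimated counts of 53, 73 and 61 in the controls and 65, 45 and 76 in Phf2 KO, or 0.86 to 1.25 CPM over the 6 libraries. Its log2 fold change was -0.087, and the 95% interval, -0.74 to 0.57, leaves changes of that size undetected at this depth. The related Vgll1 had an estimated count of 0 in every library.

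Lats2 (chromosome 14, 57689662 to 57758388, minus strand) encodes a kinase that inactivates YAP and TAZ and is itself a known YAP target, so it sits at both ends of the pathway. It had 65.7, 68.2 and 74.2 CPM in the controls and 62.3, 67.8 and 66.2 CPM in Phf2 KO, with overlapping groups and a log2 fold change of -0.085 (95% interval -0.21 to 0.04, adjusted p = 0.479). The value of Lats2 is uncertain, because the gene Gm49361 on the same strand shares 2955 bp, or 42.4%, of its annotated exons. Gm49361 had a count of 0 in every library but 23.0 to 28.2 TPM. Lats1, the paralogue of Lats2, did not pass either (log2 fold change 0.075, adjusted p = 0.447).

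Levels of different genes can be compared only per length. In TPM of the reference genes, the control means were 93.0 ± 1.91 for Wwtr1, 58.9 ± 2.05 for Yap1, 49.6 ± 6.17 for Vgll4, 37.9 ± 5.88 for Tead4, 36.9 ± 5.35 for Tead3, 32.7 ± 6.92 for Tead2, 28.7 ± 2.68 for Lats2, 28.2 ± 2.90 for Vgll3, 8.40 ± 0.989 for Tead1 and 1.39 ± 0.209 for Vgll2 (SD, n = 3 each). On this scale Wwtr1 and Yap1 were separated from each other and from the rest. Neighbours in the order from Vgll4 down to Vgll3 overlapped, so their order is not resolved. In Phf2 KO, Tead4 stood at 26.6 ± 1.44 TPM. The place of Tead1 depended on the rows read. On the assembled loci, which the same tables list under identifiers made by StringTie, it had 53.0 ± 0.535 TPM in the controls, the highest mean of the TEADs, though Tead4 overlapped it (47.0 ± 8.40 TPM). On CPM per kb of annotated exons it was the highest TEAD in every control, at 16.9 ± 0.158. The places of Yap1 and Vgll3 also depended on the scale. On CPM per kb, Yap1 had 12.3 ± 0.248 in the controls and lay below Tead1 and Vgll3 (16.7 ± 0.562) in every control.

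The share of each TEAD in the summed TEAD level was compared for the same reason on 4 scales. In TPM of the reference genes Tead4 made up 32.6 ± 4.02% of the TEAD level in the controls and 26.3 ± 1.77% in Phf2 KO, a difference of -6.31 points (two-sided exact permutation p = 0.2). The groups overlapped, and with 3 libraries against 3 this test cannot go below 0.1. Taken as pairs of the same replicate number, the share was lower in Phf2 KO in 3 of 3 pairs (exact sign-flip permutation p = 0.25, the smallest that 3 pairs allow). It was also lower in 3 of 3 pairs on CPM and on CPM per kb of exons. On TPM of the assembled loci it was lower in 2 of 3 pairs (exact sign-flip permutation p = 0.5). The difference was -6.97 points on CPM per kb of exons and -3.70 points on CPM (exact permutation p = 0.1 each, the smallest possible, without overlap), and -4.20 points on TPM of the assembled loci (exact permutation p = 0.3, with overlap), where Phf2 KO 2 had 51.0 TPM of Tead4. Tead1 took the higher share in every Phf2 KO library in reference TPM, 8.77 ± 0.729% against 7.24 ± 0.595% (exact permutation p = 0.1, and 0.267 after Benjamini-Hochberg adjustment over the 4 TEADs). Tead2 and Tead3 made up 28.4 ± 6.83% and 31.8 ± 3.73% in the controls and 33.4 ± 0.412% and 31.5 ± 2.05% in Phf2 KO, with overlap in both. No share of a TEAD could pass 0.05 in this design.

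**Figure D3:**
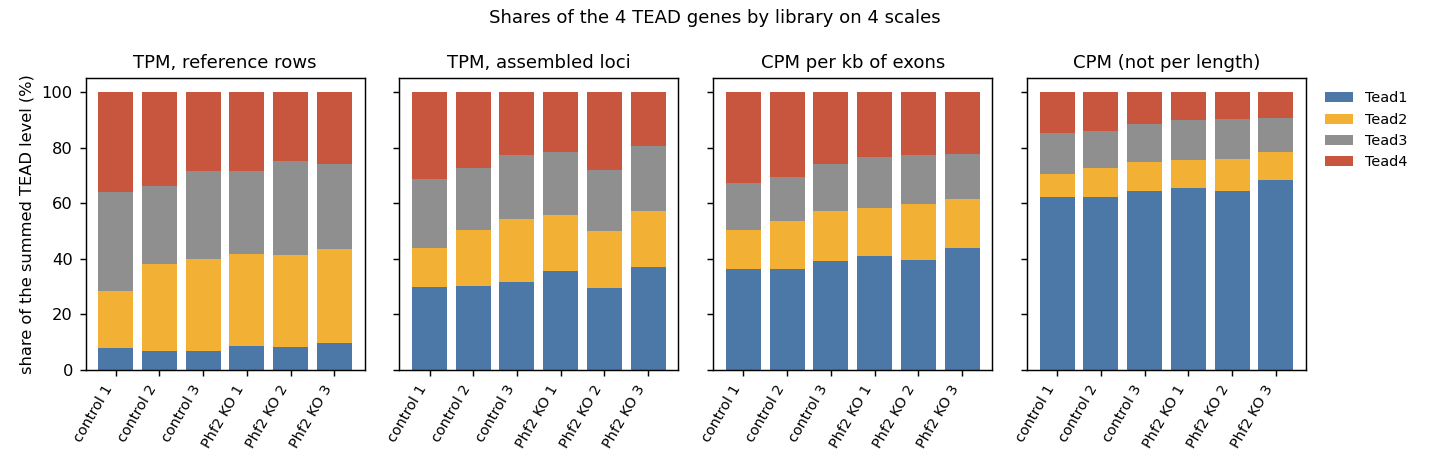
Share of each TEAD gene in the summed TEAD level (y axis, %, bars reach 100) for every library (x axis) on TPM of the reference genes, TPM of the assembled loci, CPM per kb of annotated exons and CPM. The share of Tead1 in the controls ranges from 7.24% on reference TPM to 63.0% on CPM, and the mean share of Tead4 is lower in Phf2 KO on all 4 scales.

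Wwtr1 made up 61.2 ± 1.31% of the summed TPM of Wwtr1 and Yap1 in the controls and 59.1 ± 1.98% in Phf2 KO (-2.08 points, exact permutation p = 0.2), and was lower in 3 of 3 same-numbered pairs (exact sign-flip permutation p = 0.25). Of the summed VGLL level, Vgll4 made up 62.6 ± 3.43% and 63.5 ± 0.806%, Vgll3 35.7 ± 3.09% and 34.5 ± 1.12%, and Vgll2 1.78 ± 0.421% and 1.97 ± 0.317%, in controls and Phf2 KO respectively. On this scale all these shares overlapped between the groups (exact permutation p from 0.2 to 0.7). The differences of Vgll3 (-1.15 points) and Vgll4 (0.958 points) had the opposite sign on the other 3 scales. On the assembled loci the share of Vgll2 was lower in every Phf2 KO library (-1.0 points, exact permutation p = 0.1).

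The kinases and scaffolds upstream of YAP and TAZ were read from lists. Of 21 genes of the kinase module (MST and LATS kinases, their cofactors and related kinases), 1 rose and none fell by edgeR's quasi-likelihood test, against 3.22% and 3.26% of all genes, with a median log2 fold change of 0.055. The one that rose, Map4k5, a kinase that can phosphorylate LATS, went from 70.1 ± 3.20 to 79.2 ± 1.38 CPM at the edge of the threshold (log2 fold change 0.18, adjusted p = 0.0497), and the count was 0 with exactTest, with DESeq2's size factors, with library size alone and with no filter. It was lost without any 1 library except control 3 (adjusted p from 0.0715 to 0.237). With the replicate number as a block 2 kinases passed, and 6 of the 21 had an unadjusted p under 0.05, against 19.4% of all genes.

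Of 28 junction, polarity and scaffold genes, 3 rose and 1 fell, against 3.22% and 3.26% of all genes (median log2 fold change 0.022). Fat4, an atypical cadherin that acts upstream of Hippo signalling, was at 151.0, 155.1 and 158.3 CPM in the controls and 200.8, 198.8 and 205.0 CPM in Phf2 KO. The groups were far apart relative to their spread, with a log2 fold change of 0.38 (SE 0.043, adjusted p = 1.38e-04). Dlg5, a polarity scaffold, rose from 104.1 ± 4.50 to 124.4 ± 0.333 CPM (adjusted p = 0.00317). Amot, an angiomotin that binds YAP, rose from 204.2 ± 6.97 to 234.5 ± 11.1 CPM (adjusted p = 0.0220). Scrib, a polarity scaffold that holds MST, LATS and TAZ together, fell from 137.0 ± 5.42 to 113.1 ± 5.24 CPM (adjusted p = 0.00341). Of 11 tested partners of TEADs and VGLLs, 2 rose and none fell, against 3.22% and 3.26% of all genes (median 0.086). An unadjusted p under 0.05 was found for 3 of the 11, against 19.4% of all genes. The 2 that rose were Irf2bp2, a VGLL4-binding corepressor (76.4 ± 6.96 to 92.8 ± 4.18 CPM, adjusted p = 0.0186), and Ncoa2, a nuclear receptor coactivator of the family that binds TEADs (85.7 ± 4.73 to 97.4 ± 2.97 CPM, adjusted p = 0.0452). The calls of Amot, Irf2bp2 and Ncoa2 were each lost without control 1, control 2, Phf2 KO 2 or Phf2 KO 3 (largest adjusted p of 0.112, 0.0952 and 0.192), and limma on TPM made none of the scaffold and partner calls.

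Of 21 genes known as targets of YAP and TAZ, 6 rose, 1 fell and 14 did not pass, against 3.22% higher and 3.26% lower among all genes, with a median log2 fold change of 0.092. Ccn2, a secreted matricellular protein and one of the most used readouts of YAP, had 275.9, 285.0 and 312.3 CPM in the controls and 452.8, 418.3 and 423.4 CPM in Phf2 KO. All Phf2 KO libraries were well above all controls (log2 fold change 0.57, SE 0.051, adjusted p = 3.22e-05). Igfbp3, which binds insulin-like growth factors, rose from 43.3 ± 5.53 to 81.4 ± 4.36 CPM (log2 fold change 0.91, SE 0.085, adjusted p = 1.37e-04). Ccn2 and Igfbp3 passed under every alternative tried. Tgfb2, a TGF-beta ligand, rose from 98.6 to 124.4 CPM (adjusted p = 6.72e-04), and F3, tissue factor, from 54.6 to 71.3 CPM (adjusted p = 0.00278). Dock5, a Rac exchange factor, rose from 75.2 to 89.0 CPM (adjusted p = 0.00697) and Foxf2, a forkhead factor, from 16.2 to 22.3 CPM (adjusted p = 0.00728). The gene that fell, Ccdc80, went from 223.2 to 198.3 CPM (adjusted p = 0.0295). It is named after its value was seen, and it passed without control 1 but not without any other library (adjusted p up to 0.109) or with exactTest (0.0794). Dock5 did not pass without Phf2 KO 2 (adjusted p = 0.0520).

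The other standard readouts of YAP did not pass. Ccn1, which with Ccn2 belongs to the CCN family, had 433.1, 413.9 and 530.9 CPM in the controls and 541.5, 554.4 and 509.4 CPM in Phf2 KO. Control 3 lay within the range of Phf2 KO, and the log2 fold change was 0.22 (SE 0.096, adjusted p = 0.279), against an adjusted p of 0.00107 without control 3. Ankrd1, a stretch-responsive repressor in muscle, had a log2 fold change of -0.13 (adjusted p = 0.495), against an adjusted p of 0.0190 without Phf2 KO 1. Over the list, 16 log2 fold changes were positive and 5 negative. Several of its genes also respond to TGF-beta and other signals, and YAP targets had already been looked at in these libraries when the list was made.

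**Figure D4:**
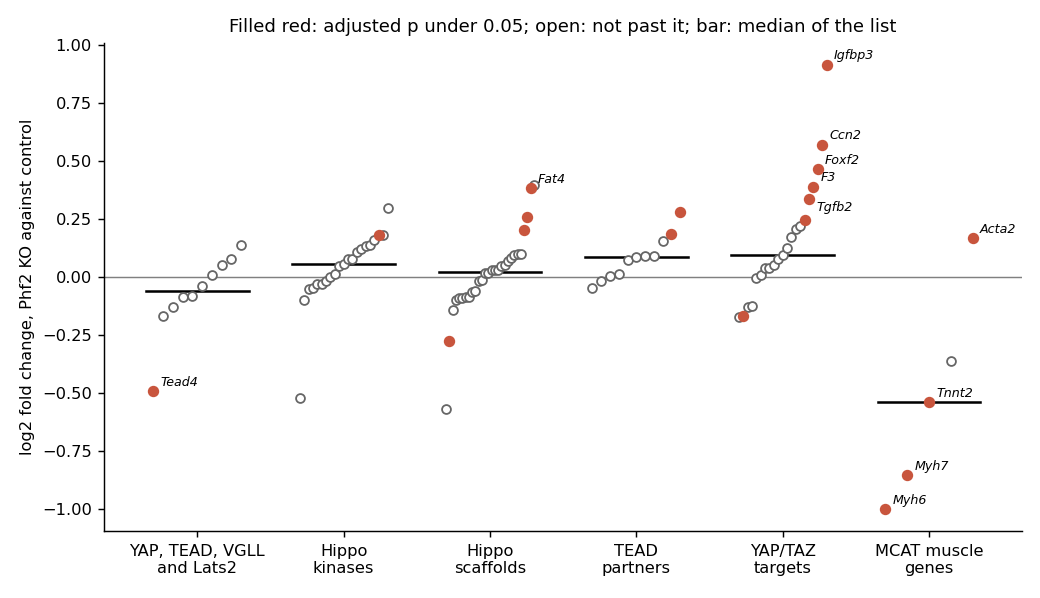
Log2 fold change of Phf2 KO against control (y axis) for each tested gene of the 6 lists (x axis), ordered within each list, with genes past an adjusted p of 0.05 in red and the list's median as a bar. The YAP/TAZ targets range from -0.17 to 0.91 with Igfbp3 and Ccn2 at the top, and the MCAT muscle genes from -1.0 to 0.17 with Acta2 alone above 0.

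Of the 5 muscle genes with MCAT elements, 3 fell and 1 rose, against 3.26% and 3.22% of all genes (median log2 fold change -0.54). With limma on TPM none of the 3 passed (Tnnt2 adjusted p = 0.145, Myh6 0.560 and Myh7 0.601 with a pseudocount of 1 TPM), and only Acta2 did (0.0400). Tnnt2 had 688.6, 717.9 and 615.5 CPM in the controls and 476.7, 454.5 and 459.7 CPM in Phf2 KO, and its groups were well apart (log2 fold change -0.54, adjusted p = 5.99e-05). Myh6, the alpha cardiac myosin heavy chain, fell from 22.9 ± 3.88 to 11.4 ± 0.498 CPM (adjusted p = 1.79e-04). Myh7, the slow and beta cardiac myosin heavy chain, fell from 83.4 ± 16.6 to 46.1 ± 1.36 CPM (adjusted p = 0.0415), and lost the call with the replicate number as a block (adjusted p = 0.0873) and without any 1 library except control 3 (adjusted p from 0.0563 to 0.175). Acta2, smooth muscle actin, rose from 3029 ± 39.4 to 3400 ± 80.3 CPM (adjusted p = 0.00525), and did not pass with exactTest (adjusted p = 0.0961) or without Phf2 KO 2 (0.0602). Acta1, skeletal actin, was at 2491 ± 265 CPM in the controls and 1938 ± 156 CPM in Phf2 KO, with an adjusted p of 0.117, and passed with the block (adjusted p = 8.08e-04), with exactTest (0.00472), with DESeq2 (4.07e-06) and without control 3 (0.0198). Myh6 and Myh7 lie side by side and are near-identical, and the actins share most of their coding sequence, so the division of reads within each pair is uncertain. Tnnt2, Myh6 and Myh7 were known from these libraries when the list was made and are no independent evidence of its direction.

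Genes of the differentiated state were lower in Phf2 KO, as Tead4 was. Of 6 markers of differentiated muscle, 5 fell and 1 did not pass by the quasi-likelihood test, against 3.26% of all genes that fell (median log2 fold change -0.48). That 1 was Ttn, lower in every Phf2 KO library (log2 fold change -0.54, adjusted p = 0.111), and all 6 passed with exactTest and with DESeq2. These 6 were chosen with earlier results of these data known and are no independent evidence of their direction. The paper already lists Myog, Mymk and Myh3 as lower in Phf2 KO. The summed level of the 6 markers was 5880 to 6941 CPM in the controls and 4558 to 4977 CPM in Phf2 KO. Control 3 was the lowest control in Tead4 and also in this sum. The other libraries did not keep the order of Tead4. Phf2 KO 3 was the lowest library in Tead4 but had the highest sum in Phf2 KO (4695, 4558 and 4977 CPM in replicates 1, 2 and 3). Control 2 had a higher sum than control 1 (6941 against 6802 CPM) but less Tead4. Myog, the myogenic factor of differentiation, had 496.4, 489.1 and 426.6 CPM in the controls and 408.4, 353.5 and 356.8 CPM in Phf2 KO. Ckm, muscle creatine kinase, had 218.2, 207.2 and 179.4 CPM against 124.6, 110.9 and 115.4 CPM. The part of differentiation in the lower level of Tead4 was not tested, and in bulk RNA fewer differentiated cells and less RNA of a gene per cell cannot be told apart. None of 6 markers of undifferentiated or cycling myoblasts (Pax7, Myf5, Mki67, Top2a, Cdk1 and Ccnb1) passed by the quasi-likelihood test, exactTest or DESeq2. By the quasi-likelihood test 6.48% of all genes passed. An unadjusted p under 0.05 was found for 0 of the 6, against 19.4% of all genes, so with so few genes these counts are near that background. Their sums were 208 to 226 CPM in the controls and 206 to 227 CPM in Phf2 KO. Markers of endothelium, leukocytes, epithelium, adipocytes and chondrocytes summed to at most 0.488 CPM in any library, and 1 of these 6 was at 0 throughout.

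The genes whose pattern over the 6 libraries was most like that of Tead4, among 10922 with a mean of at least 5 CPM, were Myo18a, an unconventional myosin (Pearson r = 0.998), Casq1, the calcium-binding protein of the fast muscle sarcoplasmic reticulum (r = 0.998), and Isyna1, an enzyme of inositol synthesis (r = 0.994). These values were chosen as the highest of many over 6 points, and the points share the group difference. Myo18a, Casq1 and Isyna1 all had the same order of libraries as Tead4. Casq1 had 57.2, 52.0 and 38.1 CPM in the controls and 33.9, 32.7 and 30.7 CPM in Phf2 KO. Its log2 fold change was -0.60 (adjusted p = 0.0738), and it passed under the replicate block (0.00232), in exactTest, in DESeq2 and without control 3, while that of Myo18a was -0.21 (adjusted p = 0.0163, and up to 0.103 without control 1, control 2, Phf2 KO 2 or Phf2 KO 3) and that of Isyna1 -0.21 (adjusted p = 0.116).

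**Figure D5:**
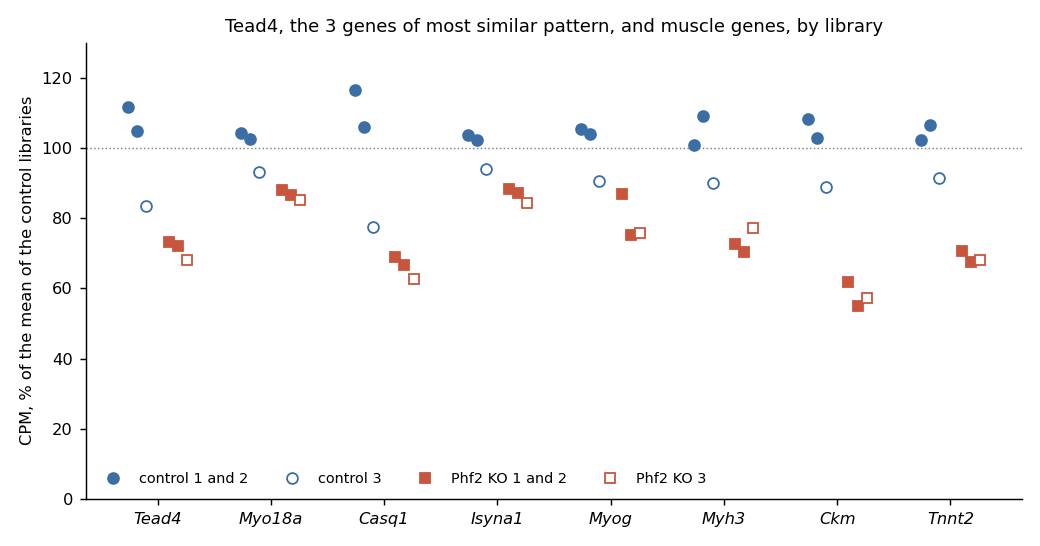
CPM as a percentage of the mean of the control libraries (y axis, from 0) for Tead4, the 3 genes most like it, and the muscle genes Myog, Myh3, Ckm and Tnnt2 (x axis), with controls as blue circles and Phf2 KO as red squares and replicate 3 of each group drawn open. Control 3 is the lowest control for each gene plotted, at 83.4% for Tead4, and the Phf2 KO libraries have 68.0 to 73.2% of the control mean of Tead4.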

How the data were processed

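RNA-seq of 3 control and 3 Phf2 KO libraries was analysed. Per the paper's methods, libraries were poly(A), directional and paired-end, reads were aligned to mm10 with HISAT2, and StringTie gave the values (versions, annotation and the strand setting of the counting are not given in the sources used here). The authors deposited a matrix of estimated counts, in which 1 count stood for a median of 74.98 to 74.99 covered bases, so that a read pair adds about 4 counts. They also deposited TPM per library, a signal scaled within each library, of which the rows of reference genes were used, or the assembled loci where named. The deposited coverage (other values in the same tables) served only to find that unit. Coordinates are of GENCODE M21 (GRCm38), which matched 55141 of 55401 rows and all 10 genes.

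The counts were tested in edgeR 4.0.16 (R 4.3.3) by the quasi-likelihood test with robust estimates, after TMM scaling and a filter on low counts (filterByExpr, at least 10), with Benjamini-Hochberg adjustment over 17310 genes and a threshold of 0.05. CPM is TMM-normalized, and the prior count behind log2 fold changes was 0.125. Shares were compared by two-sided exact permutation. The alternatives were exactTest (the study's test), DESeq2 1.42.0, its size factors, library size alone, other filters, a replicate block, counts divided by 4, limma 3.58.1 on log2(TPM + 1) and log2(TPM + 0.1), and leaving out each library. With exactTest 1129 genes passed here, more than the paper reports, so calls by exactTest here are not the study's own. Shares on assembled loci and on CPM per kb, and their paired sign-flip test, were added after seeing the data. The procedure was tested on simulated data.

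Libraries with the same replicate number deviated together (r = 0.235, 0.258 and 0.168 across 10923 genes, which are not independent). For different numbers r was at most -0.002. Levels were centred within each group, so these lower values follow in part from the higher ones and are no separate evidence. The numbers may thus pair the libraries. The labels describe no pairing, and the study's test has none.

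The 10 genes and all lists were chosen with earlier results of these data known. Named by rule are Phf2, the 10 genes, Lats1, up to 6 genes of smallest p past the threshold per list, the 5 MCAT genes, Ccn1, Ccn2, Ankrd1 and the 3 genes most like each gene past the threshold. Muscle markers and Ccdc80 are named besides.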

Additional observations from a re-analysis of the deposited data

How the results depend on the processing

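Over 16 alternatives, 147 of 160 log2 fold changes of the 10 genes kept their direction and their side of the threshold, and no gene other than Tead4 passed in any. The 5 that lost the call all belong to Tead4 (limma on TPM at both pseudocounts, and 3 fits without 1 library), and the count of the 10 genes past the threshold was then 0 (0 to 1 without 1 library). The 8 that turned direction came from leaving out 1 library, with ranges of -0.017 to 0.044 for Wwtr1, -0.029 to 0.14 for Tead2, -0.076 to 0.015 for Tead3 and -0.18 to 0.036 for Vgll2. Of 17310 genes, 1122 passed, against 158 and 178 with limma on log2(TPM + 1) and log2(TPM + 0.1), and 468 to 1039 without 1 library. Limma at these pseudocounts called 0 and 0 kinases, 0 and 0 scaffolds, 0 and 0 TEAD partners, 2 and 3 YAP/TAZ targets and 1 and 1 MCAT genes. The kinase count of 1 became 0 with exactTest, DESeq2's size factors, library size alone or no filter, and 2 with DESeq2. The partner count of 2 became 1 with exactTest or no filter. Without 1 library the counts were 0 to 2 for kinases, 3 to 4 for scaffolds, 0 to 2 for partners, 5 to 9 for targets and 2 to 5 for MCAT genes. The cause was not tested.

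With the replicate number as a block, 1316 genes passed, 1068 of them shared with the fit without it. Tead4 kept its call (log2 fold change -0.48, adjusted p = 0.00121), Myh7 lost it, Acta1 and Casq1 gained it, and the kinase count was 2. Among the other genes named by rule the block changed no call.

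The difference in the Tead1 share was 3.45 points on assembled loci, where the groups overlapped. It was 3.21 on CPM and 4.16 on CPM per kb, against 1.54 on reference TPM. The difference in the Vgll2 share was -1.0 points on assembled loci against 0.190 on reference TPM. Depth limits Vgll2, whose interval spans more than a log2 unit, and the pairs of reads behind a count are fewer than the count by about 4 times.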

Other observations

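The neighbourhood of Tead4 was also read. Within 250 kb of the gene, 16 other genes were tested and 0 passed by edgeR's quasi-likelihood test, exactTest or DESeq2, against 6.48% of all genes by the quasi-likelihood test. An unadjusted p under 0.05 was found for 0 of them, against 19.4% of all genes. Several of them had few counts, such as Gm4691 (mean of 0.15 CPM, SE of the log2 fold change 0.80), so changes in these could go undetected.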
